A study of Danio rerio with 28 samples.

Results

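The cxcl11 genes of the zebrafish (Danio rerio) encode a family of CXC chemokines, and 5 of them were followed through 28 RNA-seq libraries. They were cxcl11.1 (ENSDARG00000100662), cxcl11.3 (ENSDARG00000102514), cxcl11.5 (ENSDARG00000092423), cxcl11.6 (ENSDARG00000094706) and cxcl11.7 (ENSDARG00000093779), taken by gene name or identifier. These are 5 of the 7 cxcl11 genes among the 32520 genes of the deposited count table; the other two, cxcl11.4 and cxcl11.8, are described with the other chemokines. All fish carried TgBAC(ccl34b.1:eGFP);Tg(mpeg1:DsRedx), in which a bacterial artificial chromosome of ccl34b.1 drives eGFP and mpeg1 sequence drives the red protein DsRedx in cells of the macrophage lineage. Red cells of dissociated brains were sorted by eGFP into a ccl34b.1+ and a ccl34b.1- gate, 100 cells a library, and both gates are labelled microglia. At 6 months of age there were 3 fish injected with E. coli, 4 injected with PBS and 2 control fish with no treatment given in the labels, and at 4 months 5 untreated fish. Every fish gave 1 library per gate, selected for cDNA quality from 3 sorted technical replicates, which makes 8 groups of 2 to 5 libraries, each library of a group from a different fish. The site and dose of injection and the time to sampling are not given in the sources used here.

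Chemokines are small secreted proteins that attract leukocytes along a gradient. In mammals CXCL11 is induced by interferons in myeloid and other cells, and acts on the receptor CXCR3 of T cells and natural killer cells. In zebrafish a Cxcl11 ligand draws macrophages to infection through the receptor Cxcr3.2, while Cxcr3.3 has been described as an atypical receptor that takes up ligand. In the RefSeq annotation of assembly GRCz12tu, cxcl11.7 and cxcl11.6 are direct neighbours on chromosome 5, and cxcl11.4, cxcl11.3, cxcl11.1 and the chemokine gene cxcl20 follow one another in that order on the same chromosome.

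Libraries held 2241693 to 9691032 gene counts in the 6-month fish and 14237065 to 30370520 in the untreated fish. Levels are given as CPM, the counts of a gene divided by an adjusted library total and multiplied by a fixed factor. The adjusted total is the counts of genes past the low-count filter, times a trimmed mean of M-values factor of 0.701 to 1.33. CPM are on 1 scale over all 28 libraries. They are not corrected for gene length, so that a gene is compared between groups and not with another gene. The reporter's own gene, ccl34b.1, had 576 to 10130 CPM in ccl34b.1+ libraries and 13.3 to 798 CPM in ccl34b.1- libraries, without overlap within any treatment. The summed CPM of 13 microglia markers was 5660 to 9980 in ccl34b.1+ cells after E. coli, 53200 to 77300 after PBS, 68100 to 89000 in control fish and 41300 to 53600 in untreated fish. In ccl34b.1- cells the same sum was 808 to 5380 over all groups, whereas the sum of 13 dendritic cell marker genes was 5680 to 26000 CPM, against 512 to 2940 CPM in ccl34b.1+ cells. The microglia list holds ccl34b.1 itself, and its members did not all follow the sum. After PBS, P2RY12 averaged 60.8 CPM in ccl34b.1+ and 0.752 CPM in ccl34b.1- cells. c1qb averaged 365 and 917 CPM in the same groups, and c1qc 322 and 841 CPM. Of the dendritic cell markers, ccl19a.1, siglec15l and ID2 had the highest means in ccl34b.1- cells after PBS, at 6621, 3487 and 2958 CPM. ZBTB46 went the other way, with 6.96 CPM in ccl34b.1+ and 2.23 CPM in ccl34b.1- cells after PBS. The gates thus differed in these sums although they share the microglia label. Because the lists were chosen with earlier results of these data known, the sums are no independent evidence of cell identity. The cells are called by their gates below. In libraries of pooled cells, a lower share of expressing cells and less RNA per cell cannot be told apart.

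All 5 paralogs were at their highest in ccl34b.1- cells of fish injected with E. coli, where their means lay between 737 and 3518 CPM. In ccl34b.1+ cells after E. coli cxcl11.1 was near its own ccl34b.1- level, with a mean of 774 CPM, while cxcl11.3, cxcl11.5, cxcl11.6 and cxcl11.7 averaged 7.75 to 72.1 CPM. Each paralog was compared between E. coli and PBS within each gate by edgeR's quasi-likelihood test over 12421 genes, and a gene is called changed at a Benjamini-Hochberg adjusted p below 0.05. In ccl34b.1- cells 4 of the 5 paralogs rose, where 0.233% of all tested genes were called higher and 0.403% in either direction. In ccl34b.1+ cells 2 of the 5 rose, where 0.7% of all tested genes were called higher and 1.51% in either direction. The median log2 fold change of the 5 paralogs was 6.32 in ccl34b.1- cells, against a median of -0.08 over all genes, and 2.08 in ccl34b.1+ cells, against -0.19 over all genes.

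**Figure D1:**
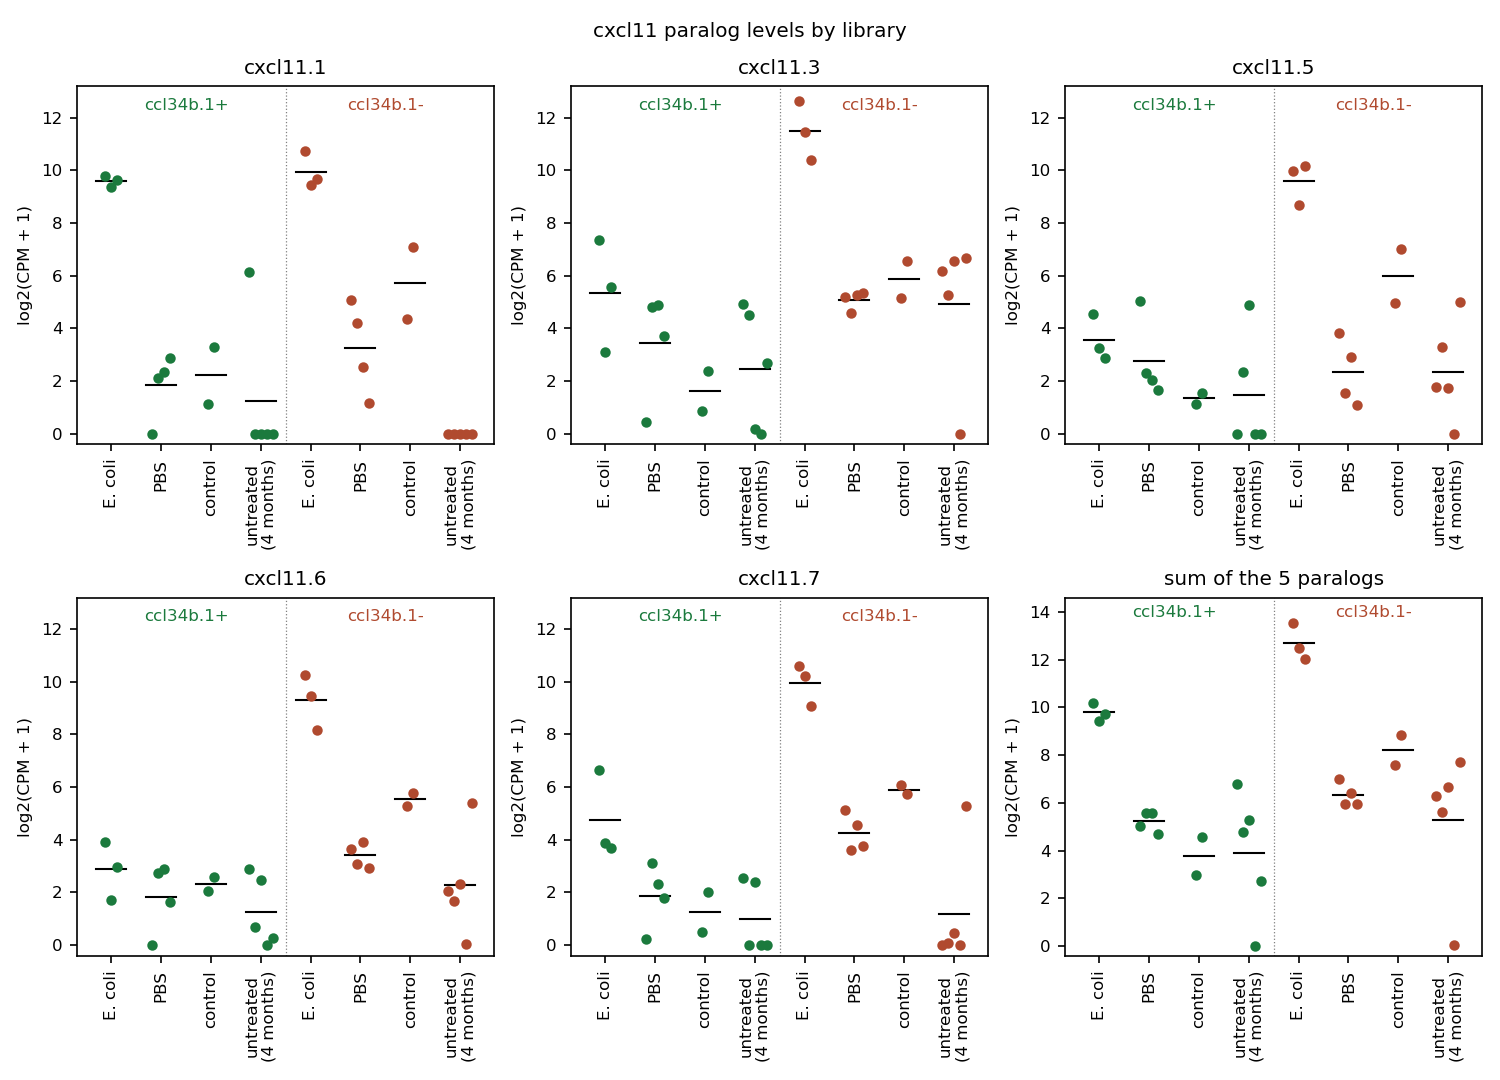
Level of each paralog, and of their sum, in each library, as log2(CPM + 1), with ccl34b.1+ groups on the left and ccl34b.1- groups on the right of each panel. Points are libraries and bars are means of the plotted log2 values; all 3 E. coli libraries of ccl34b.1- cells lie above all libraries of the other treatments for every paralog, and in ccl34b.1+ cells the E. coli libraries stand clear of every other group of that gate for cxcl11.1, cxcl11.7 and the sum.

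cxcl11.1 was high after E. coli in both gates. In ccl34b.1+ cells it had 879, 661 and 781 CPM in the E. coli libraries, against 0, 3.3, 4.02 and 6.37 CPM in the PBS libraries. In ccl34b.1- cells it had 1678, 698 and 821 CPM after E. coli, against 32.7, 17.2, 4.75 and 1.24 CPM after PBS. The E. coli libraries lay far above the PBS libraries in each gate, and the E. coli libraries of the 2 gates overlapped. In ccl34b.1+ cells cxcl11.1 averaged 774 ± 109 CPM after E. coli (SD, n = 3) and 3.42 ± 2.63 CPM after PBS (SD, n = 4). It rose there by 7.82 on the log2 scale (SE 1.40), or 226-fold, with an adjusted p of 0.00803 by edgeR's quasi-likelihood test. In ccl34b.1- cells its mean was 1066 ± 534 CPM after E. coli (SD, n = 3) and 14.0 ± 14.3 CPM after PBS (SD, n = 4). Its log2 fold change of 6.32 (SE 1.30) in that gate just missed the threshold, with an adjusted p of 0.0571 by edgeR, and it passed with an adjusted p of 0.00505 when the E. coli and PBS groups were fitted without the other libraries. With the 2 control fish in place of the PBS fish, the call in ccl34b.1+ cells was lost (log2 fold change 7.27, adjusted p = 0.0945 by edgeR).

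Outside the E. coli groups cxcl11.1 was low and uneven. Control fish had 1.19 and 8.76 CPM in ccl34b.1+ cells, and 19.5 and 135 CPM in ccl34b.1- cells. In untreated fish 1 ccl34b.1+ library had 70.1 CPM from 2146 counts, while the other 4 ccl34b.1+ libraries and all 5 ccl34b.1- libraries held no count. By counting error alone, counts of 0 in all 5 ccl34b.1- libraries allow at most 0.0301 CPM over the group (3 counts). The ccl34b.1+ mean was at least 466-fold above that limit, but it rests on the single library. The limit does not cover the spread between fish, so it sets no bound on the difference between gates. The gene did not pass the filter on low counts in the untreated libraries and was not tested there.

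cxcl11.3 rose in ccl34b.1- cells and was not called in ccl34b.1+ cells. In ccl34b.1- cells it had 6413, 2796 and 1344 CPM after E. coli, against 35.2, 23.2, 37.3 and 39.0 CPM after PBS. In ccl34b.1+ cells it had 162, 7.45 and 47.0 CPM after E. coli, against 0.349, 26.7, 28.5 and 12.0 CPM after PBS. The groups were widely separated in ccl34b.1- cells and overlapped in ccl34b.1+ cells. Its log2 fold change was 6.78 (SE 1.28), or 110-fold, in ccl34b.1- cells (adjusted p = 0.0413 by edgeR) and 2.08 (SE 1.08) in ccl34b.1+ cells (adjusted p = 0.357), with a 95% interval from -0.24 to 4.41. The call in ccl34b.1- cells was close to the threshold: the adjusted p by edgeR was 0.112 to 0.135 when any 1 of the 4 PBS libraries was left out, and 0.0599 without E. coli library 2. Without E. coli library 1, which held the highest level, the log2 fold change was 5.99 and the adjusted p 0.0431.

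cxcl11.5 had the smallest p of all 12421 genes when ccl34b.1- cells of E. coli and PBS fish were compared. It had 996, 407 and 1144 CPM in the E. coli libraries of ccl34b.1- cells, against 12.9, 1.88, 6.44 and 1.11 CPM in the PBS libraries. In ccl34b.1+ cells it had 22.0, 8.48 and 6.32 CPM after E. coli, against 31.4, 3.96, 3.09 and 2.12 CPM after PBS. The E. coli libraries of ccl34b.1- cells stood apart from all others, while in ccl34b.1+ cells the highest value belonged to a PBS library. The gene rose in ccl34b.1- cells by 7.29 on the log2 scale (SE 1.00), or 157-fold, with an adjusted p of 0.000326 by edgeR. In ccl34b.1+ cells the log2 fold change was 0.27 (SE 0.81) with an adjusted p of 1 and a 95% interval from -1.39 to 1.93. That estimate depended on PBS library 1: without it the log2 fold change was 1.98, still not called, and without E. coli library 1 it was -0.46. In ccl34b.1- cells the log2 fold change was 8.11 without PBS library 1.

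cxcl11.6, the neighbour of cxcl11.7, ranked 4th by p in ccl34b.1- cells. Its levels there were 1232, 696 and 283 CPM after E. coli, against 11.51, 7.51, 14.2 and 6.68 CPM after PBS. In ccl34b.1+ cells they were 14.2, 2.31 and 6.77 CPM after E. coli, against 0, 5.61, 6.49 and 2.12 CPM after PBS. Again the 2 treatments were far apart in ccl34b.1- cells and interleaved in ccl34b.1+ cells. The log2 fold change was 6.27 (SE 0.94), or 77.4-fold, in ccl34b.1- cells (adjusted p = 0.000504 by edgeR) and 1.12 (SE 0.82) in ccl34b.1+ cells (adjusted p = 0.565), with a 95% interval from -0.54 to 2.79. Without E. coli library 1 the value in ccl34b.1- cells was 5.66.

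cxcl11.7 was called higher after E. coli in both gates, and ranked 5th by p in ccl34b.1- cells. In that gate it had 1536, 1181 and 535 CPM in the E. coli libraries, against 34.2, 11.27, 22.4 and 12.5 CPM in the PBS libraries. In ccl34b.1+ cells it had 98.2, 13.6 and 12.0 CPM after E. coli, against 0.174, 7.59, 4.02 and 2.48 CPM after PBS. No E. coli library overlapped the PBS libraries in either gate, but in ccl34b.1+ cells 1 E. coli library was far above the other two. The log2 fold change was 5.81 (SE 0.88), or 56.3-fold, in ccl34b.1- cells (adjusted p = 0.000621 by edgeR) and 3.53 (SE 0.82), or 11.58-fold, in ccl34b.1+ cells (adjusted p = 0.0161). The ccl34b.1+ call rested on single libraries: without E. coli library 1 the log2 fold change was 1.85 with an adjusted p of 0.373, and without PBS library 3 or PBS library 4 the adjusted p was 0.0676 or 0.0816 by edgeR. Without PBS library 2 the log2 fold change was 4.22, and the call was also lost when the E. coli and PBS groups were fitted without the other libraries (adjusted p = 0.291).

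Against the 2 control fish, no paralog was called in ccl34b.1- cells. Calls were lost widely there: of the 50 genes called for E. coli against PBS in this gate, 18 were also called against control fish. The log2 fold changes of E. coli over control were 3.82 for cxcl11.1, 5.83 for cxcl11.3, 3.45 for cxcl11.5, 4.04 for cxcl11.6 and 4.23 for cxcl11.7, with adjusted p between 0.116 and 0.361 by edgeR. Control ccl34b.1- libraries had more of every paralog on average than PBS libraries of that gate: cxcl11.5, for example, had 12.9, 1.88, 6.44 and 1.11 CPM after PBS, against 30.3 and 127.6 CPM in control fish. By edgeR no paralog was called for PBS over control in either gate, where 0% of all 12421 genes were called by edgeR, 628 genes in ccl34b.1+ and 642 in ccl34b.1- cells had an unadjusted p below 0.05, and DESeq2 called 83 and 126 genes. In ccl34b.1- cells cxcl11.5 had a log2 fold change of -3.84 for PBS over control (SE 0.91, unadjusted p = 0.000196, adjusted p = 0.442 by edgeR). It was called there by DESeq2 (adjusted p = 0.0233) and by edgeR without the filter on low counts (0.0263). The corresponding values were -2.23 for cxcl11.6 and -1.58 for cxcl11.7, each with PBS libraries all below both control libraries, and -2.50 for cxcl11.1 and -0.95 for cxcl11.3, each with overlap.

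The size of the E. coli response was then compared between gates, as the log2 fold change in ccl34b.1+ cells minus that in ccl34b.1- cells. cxcl11.5 was the 1 paralog of 5 whose responses differed by this test, where 0.145% of all genes were called lower and 0.274% in either direction. Its difference was -7.02 (SE 1.28; adjusted p = 0.00785 by edgeR). The difference was -5.28 without PBS ccl34b.1+ library 1 (adjusted p = 0.0342), -7.85 without PBS ccl34b.1- library 1 and -7.75 without E. coli ccl34b.1+ library 1, and the adjusted p became 0.0506 without E. coli ccl34b.1+ library 2. For cxcl11.6 the difference was -5.15 (SE 1.22), which missed the threshold at an adjusted p of 0.0633, and for cxcl11.3 it was -4.70 (SE 1.59; adjusted p = 0.23 by edgeR). DESeq2 called both, with adjusted p of 0.0022 for cxcl11.6 and 0.0136 for cxcl11.3. For cxcl11.7 the difference was -2.28 (SE 1.12; adjusted p = 0.357 by edgeR), with a 95% interval from -4.56 to -0.004. For cxcl11.1 it was 1.5 (SE 1.58; adjusted p = 0.817), with a 95% interval from -1.89 to 4.89, so that a severalfold difference in either direction was not resolved.

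**Figure D2:**
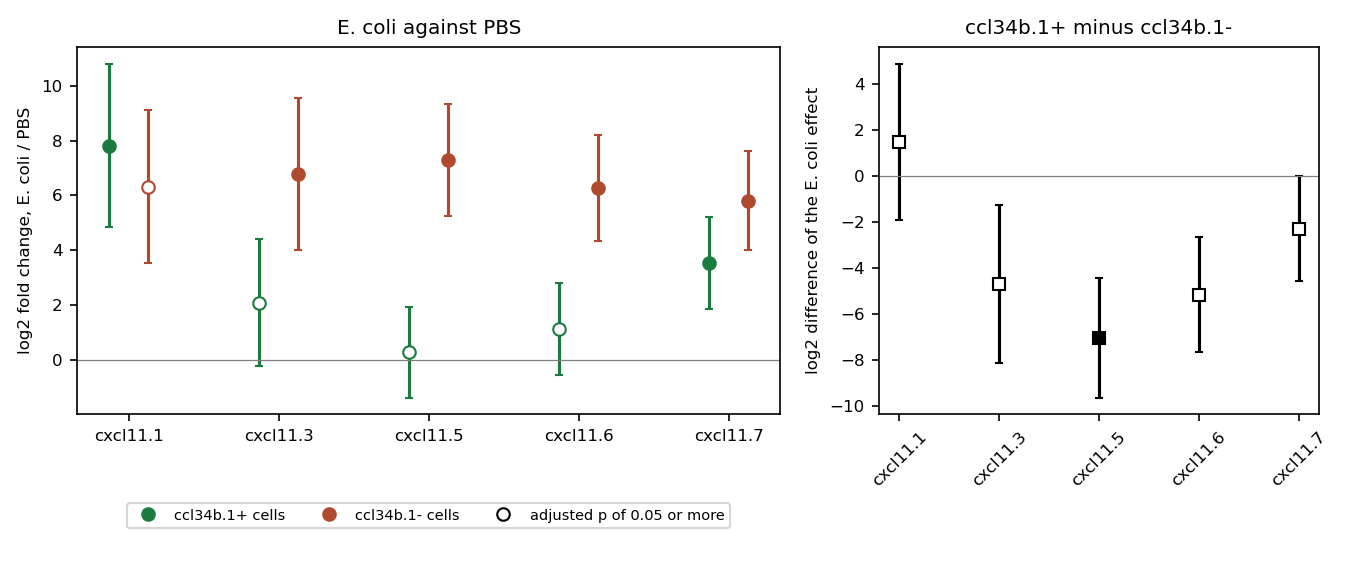
E. coli response of each paralog: on the left the log2 fold change of E. coli over PBS in ccl34b.1+ and ccl34b.1- cells, on the right the ccl34b.1+ value minus the ccl34b.1- value. Points are estimates from edgeR with 95% intervals, filled where the adjusted p is below 0.05; the estimates for cxcl11.1 lie at 7.82 and 6.32, whereas for cxcl11.5 they lie at 0.27 and 7.29.

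The gates themselves differed after E. coli. The paralogs cxcl11.5, cxcl11.6 and cxcl11.7 were lower in ccl34b.1+ than in ccl34b.1- cells, where 1.43% of all genes were called lower and 2.31% in either direction. The log2 differences were -6.14 for cxcl11.5 (adjusted p = 0.000599), -6.62 for cxcl11.6 (adjusted p = 0.000269) and -4.76 for cxcl11.7 (adjusted p = 0.0035), all by edgeR. cxcl11.3 had a log2 difference of -5.66 without overlap of libraries but missed the threshold (adjusted p = 0.0518), and cxcl11.1 had -0.51 (SE 1.17; adjusted p = 0.913 by edgeR). cxcl11.3 was called by DESeq2 (adjusted p = 5.37e-07), and by edgeR without the filter (7.21e-14) or with the 2 groups alone (0.0245), and its adjusted p with 1 library left out was 0.0487 to 0.195. The 3 calls held with every library left out in turn; without E. coli ccl34b.1+ library 1 the differences were -6.87, -7.38 and -6.45 for cxcl11.5, cxcl11.6 and cxcl11.7, and without E. coli ccl34b.1- library 1 that of cxcl11.6 was -6.01.

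The mean level in ccl34b.1+ cells after E. coli was 72.6% of that in ccl34b.1- cells for cxcl11.1, and between 52.4% and 95.1% when libraries of the same number were set side by side. For the other 4 paralogs the mean in ccl34b.1+ cells was 1.05% to 3.81% of that in ccl34b.1- cells. After E. coli the 13 dendritic cell marker genes summed to 778, 512 and 639 CPM in ccl34b.1+ cells, against 23330, 10940 and 15190 CPM in ccl34b.1- cells. Single markers of this list differed widely between the gates: the mean of ccl19a.1 was 33.8 CPM in ccl34b.1+ and 10820 CPM in ccl34b.1- cells, that of IRF8 was 249 CPM in ccl34b.1+ and 688 CPM in ccl34b.1- cells, that of ZBTB46 was 2.11 CPM in ccl34b.1+ and 0.104 CPM in ccl34b.1- cells, and CCR7 was at 0 in both. The part of ccl34b.1- cells in the levels measured in the ccl34b.1+ gate was not tested.

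In control fish all 5 paralogs had a lower mean in ccl34b.1+ than in ccl34b.1- cells, and 2 passed the test, where 0.362% of all genes were called lower and 0.869% in either direction. cxcl11.5 had 1.19 and 1.90 CPM in ccl34b.1+ cells, against 30.3 and 127.6 CPM in ccl34b.1- cells (log2 difference -5.65, adjusted p = 0.0261 by edgeR). cxcl11.7 had 0.397 and 3.05 CPM in ccl34b.1+ cells, against 66.2 and 52.1 CPM in ccl34b.1- cells (log2 difference -5.08, adjusted p = 0.0353 by edgeR). With 2 libraries a group these calls were fragile. Leaving out ccl34b.1+ library 1 gave adjusted p of 0.476 for cxcl11.5 and 0.615 for cxcl11.7 (log2 difference -4.27), and leaving out ccl34b.1+ library 2 gave 0.337 for cxcl11.5 and 0.0844 for cxcl11.7 (log2 difference -7.10). Without ccl34b.1- library 1 cxcl11.5 kept its call (log2 difference -6.34, adjusted p = 0.0188) and cxcl11.7 did not (0.212), and without ccl34b.1- library 2 neither did (0.247 at a log2 difference of -4.26 for cxcl11.5, and 0.101 for cxcl11.7). Both calls were also lost when the 2 control groups were fitted alone, at adjusted p of 0.111 and 0.176.

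After PBS edgeR called no paralog different between gates, where 2.69% of all genes were called, while DESeq2 called cxcl11.7 (adjusted p = 0.0174), and edgeR without the filter on low counts called cxcl11.7 (0.0265) and cxcl11.1 (0.0466). cxcl11.7 was lower in every ccl34b.1+ library than in every ccl34b.1- library, with a log2 difference of -2.48 (SE 0.77; adjusted p = 0.0771 by edgeR), and so was cxcl11.6, with -1.47 (SE 0.78; adjusted p = 0.299). The log2 differences were -2.01 for cxcl11.1, -0.97 for cxcl11.3 and 0.88 for cxcl11.5, each with overlapping libraries.

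In untreated fish, where 3.71% of 8658 tested genes were called, none of the 3 paralogs that passed the filter was called different between gates. cxcl11.3 had 29.1, 21.4, 0.129, 0 and 5.48 CPM in ccl34b.1+ cells, against 71.4, 37.0, 92.5, 0 and 100.2 CPM in ccl34b.1- cells. Its libraries overlapped, with a log2 difference of -2.40 (SE 1.84; adjusted p = 0.886 by edgeR). For cxcl11.5 the log2 difference was -0.43 (SE 2.36) and for cxcl11.6 it was -2.08 (SE 2.01), both uncalled. The 95% intervals were wide, from -6.33 to 1.54 for cxcl11.3, -5.48 to 4.61 for cxcl11.5 and -6.37 to 2.21 for cxcl11.6. Large differences between gates were therefore not resolved. cxcl11.7, not tested, had at most 4.83 CPM in ccl34b.1+ libraries, and in ccl34b.1- libraries 38.0 CPM in 1 library and at most 0.373 CPM in the other 4. Library 4 of either gate was nearly empty of the family: its 5 paralogs together had 0 counts in ccl34b.1+ cells and 1 count in ccl34b.1- cells, at depths of 24330528 and 22116516 counts.

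Ordered by mean level, the ccl34b.1- cells after E. coli came first for all 5 paralogs. For cxcl11.3, cxcl11.5, cxcl11.6 and cxcl11.7 their libraries did not overlap the next group in the order. For cxcl11.1 the next group was the ccl34b.1+ cells after E. coli, which overlapped them but lay above all libraries of the group after it, the control ccl34b.1- cells. The control ccl34b.1- cells came directly after them for cxcl11.5, cxcl11.6 and cxcl11.7, and behind ccl34b.1+ cells after E. coli for cxcl11.3. For cxcl11.5 they also lay above the group directly after them, and the further neighbours in each order overlapped. Their lower cxcl11.5 library, at 30.3 CPM, was still below the highest library of 2 later groups. These were PBS ccl34b.1+ cells (31.4 CPM) and untreated ccl34b.1- cells (30.6 CPM). The lowest mean was in control ccl34b.1+ cells for cxcl11.3, cxcl11.5 and cxcl11.7, in untreated ccl34b.1+ cells for cxcl11.6 and in untreated ccl34b.1- cells for cxcl11.1. The untreated fish also differed from the others in age and in library depth, so their places in these orders cannot be read as an effect of treatment.

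The make-up of the family differed between gates after E. coli. Of the summed counts of the 5 paralogs, cxcl11.1 took 74.8%, 95.4% and 91.6% in the ccl34b.1+ libraries, against 14.2%, 12.1% and 19.9% in the ccl34b.1- libraries. The 3 libraries of the 2 gates did not overlap in this share, which is a share of counts and not of transcripts, since longer genes yield more counts. Within a library the ratio of cxcl11.1 to cxcl11.3 counts was 5.43, 88.7 and 16.6 in ccl34b.1+ cells, against 0.262, 0.250 and 0.611 in ccl34b.1- cells. Summed over the 5 paralogs, the level was 1175, 693 and 853 CPM in ccl34b.1+ cells, against 11855, 5778 and 4128 CPM in ccl34b.1- cells. After PBS the sum was 31.9, 47.2, 46.1 and 25.1 CPM in ccl34b.1+ cells, against 127, 61.1, 85.1 and 60.5 CPM in ccl34b.1- cells. In ccl34b.1+ PBS library 1, 98.4% of the family's 183 counts were cxcl11.5. That library held 7790562 gene counts, against 3139982 to 3249439 in the other PBS libraries of the gate.

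**Figure D3:**
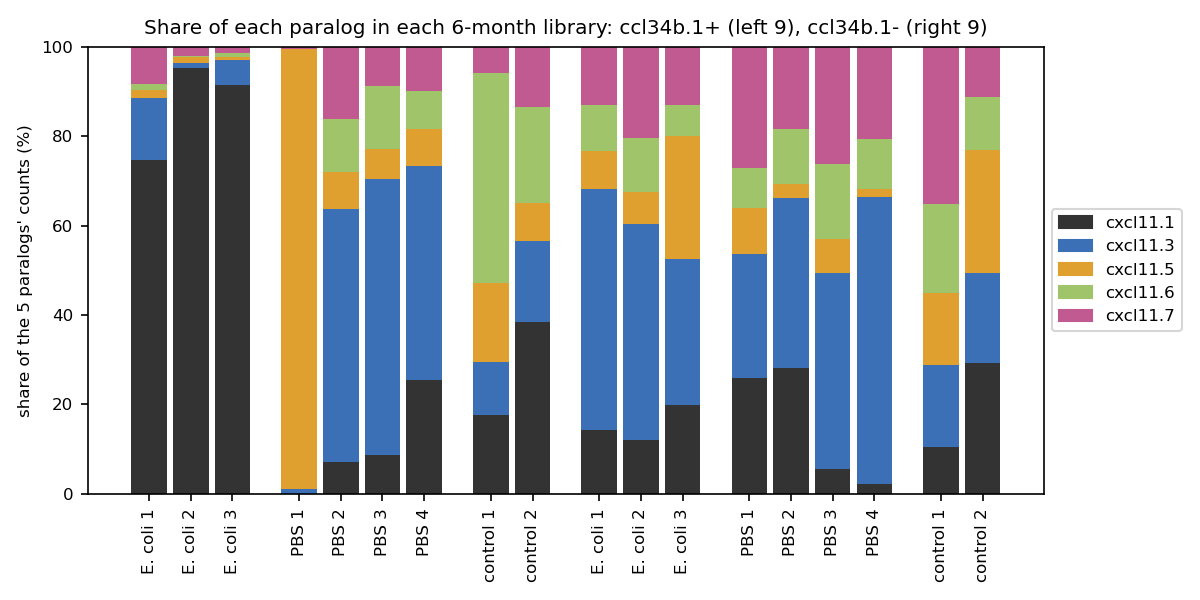
Share of each paralog in the summed counts of the 5 paralogs (in percent, not corrected for gene length) in the 18 libraries of 6-month fish, ccl34b.1+ libraries on the left and ccl34b.1- libraries on the right. After E. coli cxcl11.1 fills 74.8% to 95.4% of the bar in ccl34b.1+ cells and 12.1% to 19.9% in ccl34b.1- cells; bars of control and PBS libraries rest on as few as 17 counts.

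E. coli library 1 of ccl34b.1- cells had the highest level of cxcl11.1, cxcl11.3, cxcl11.6 and cxcl11.7 in its group, and E. coli library 3 had the highest cxcl11.5. The 5 paralogs therefore did not keep 1 order across these 3 libraries. Depth differed too, at 4100408, 3335554 and 9691032 gene counts in E. coli libraries 1, 2 and 3 of this gate. Marker sums also varied there: the dendritic cell markers summed to 23330, 10940 and 15190 CPM in E. coli libraries 1, 2 and 3 of ccl34b.1- cells, against 13800 to 20600 CPM after PBS. The neutrophil list holds 6 genes, of which mpl marks thrombocytes and was at 0 CPM in these libraries. The 6 genes summed to 8.59, 1844 and 2347 CPM in the same 3 libraries, against 0 to 13.5 CPM after PBS. Nearly all of this was MMP9 and mmp13a, proteases that other leukocytes can also make. mmp13a was called higher after E. coli in this gate (adjusted p = 0.0181 by edgeR). Its E. coli libraries there ranged from 0 to 538 CPM, against 0 to 0.124 CPM after PBS, so the groups overlapped. MMP9, at 0 to 2288 CPM after E. coli in this gate, was not called. lyz, the lysozyme gene of zebrafish neutrophils, was at 0 in all 8 groups. npsn had 0.107 to 28.5 CPM in these E. coli libraries and 0 CPM in the PBS libraries of the gate. Untreated ccl34b.1- cells had more npsn, with a mean of 50.2 CPM and at most 109 CPM. CSF3R averaged 24.6 CPM after E. coli and 4.64 CPM after PBS in ccl34b.1- cells. Its means in ccl34b.1+ cells were higher, at 78.6 CPM after E. coli and 35.4 CPM after PBS. The part of this change in marker levels in the paralog levels was not tested.

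The microglia marker sum of ccl34b.1+ cells was lower after E. coli than after PBS, as given above, and 4 of the 13 markers fell, among them apoeb (2343 CPM after E. coli, against 34573 CPM after PBS) and c1qb (23.4 CPM, against 365 CPM). The part of this change in the level of cxcl11.1 in ccl34b.1+ cells was not tested. None of the 3 T cell, 6 B cell, 3 endothelial, 3 neuron, 2 oligodendrocyte and 3 radial glia marker genes that could be tested was called by edgeR between E. coli and PBS in either gate, and no natural killer cell or erythrocyte marker passed the filter. Over all tested genes, 1.51% were called in ccl34b.1+ and 0.403% in ccl34b.1- cells, so the lack of calls among so few genes says little. Levels of uncalled markers could still differ. In ccl34b.1- cells the B cell gene ighm had 0 to 1.02 CPM after E. coli and 27.1 to 163 CPM after PBS. EBF1 (ENSDARG00000099849) went the other way, with means of 26.7 and 0.147 CPM. Of 13 macrophage marker genes tested, 2 MFAP4 genes were called higher and MPEG1 and LCP1 lower in ccl34b.1+ cells, and LCP1 lower in ccl34b.1- cells. The median log2 fold change of this list in ccl34b.1+ cells was 2.61, against -0.19 over all genes. Among its uncalled genes in that gate, marco averaged 2245 CPM after E. coli and 367 CPM after PBS. csf1rb went the other way, with 0.577 CPM after E. coli and 79.2 CPM after PBS. Of the dendritic cell markers, cd83 fell in ccl34b.1+ cells and HEPACAM2 fell in ccl34b.1- cells.

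The 4 paralogs other than cxcl11.1 had similar profiles over the 8 groups. Likeness was measured as the root mean square difference of centred log2(mean CPM + 1) over the groups, among 7086 named genes with at least 1 group mean of 20 CPM, where 0 means an identical profile. Between cxcl11.3, cxcl11.5, cxcl11.6 and cxcl11.7 it was 0.791 to 1.1 for every pair, and between cxcl11.1 and any of them 2.01 to 2.58. The nearest genes to cxcl11.3 were cxcl11.7 (0.901), cxcl11.5 (1.05) and cxcl11.6 (1.08), so that its 3 closest profiles among all candidates were its own paralogs. For cxcl11.5 the nearest genes were cxcl11.6 (0.791) and TP53I11 (0.862). For cxcl11.6 the nearest genes were TP53I11 (0.745), cxcl11.5 (0.791) and cxcl11.4 (0.866), and for cxcl11.7 they were cxcl11.3 (0.901), cxcl11.6 (0.909) and the tetraspanin gene cd9b (1.09).

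cxcl11.1 was most like mxc (1.47), bcl2l12 (1.71) and micall2b (1.72). The nearest of these, mxc, is a zebrafish gene of the Mx family of interferon-induced GTPases. Its mean was 2208 CPM after E. coli, 38.1 CPM after PBS and 15.2 CPM in control fish in ccl34b.1+ cells, and in ccl34b.1- cells 1278 CPM after E. coli, 43.3 CPM after PBS and 150 CPM in control fish. Like cxcl11.1 it was called higher after E. coli in ccl34b.1+ cells (log2 fold change 5.84, adjusted p = 0.0128 by edgeR) and just missed the threshold in ccl34b.1- cells (4.94, adjusted p = 0.0656). These profiles share libraries, depth and scaling, and the measure carries no test.

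Of the 13 other CXC chemokine genes in the table, 4 could be tested. After E. coli 1 of the 4 was called higher in ccl34b.1+ cells, where 0.7% of all tested genes were. In ccl34b.1- cells 2 of the 4 were called higher, where 0.233% of all tested genes were. cxcl8a, whose product attracts neutrophils, rose after E. coli in both gates: its mean was 1984 CPM after E. coli and 42.0 CPM after PBS in ccl34b.1+ cells (log2 fold change 5.55, adjusted p = 3.71e-05 by edgeR). In ccl34b.1- cells it was 173 CPM after E. coli and 22.1 CPM after PBS (log2 fold change 3.04, adjusted p = 0.0383). cxcl8b.1, a second Cxcl8 gene, rose in ccl34b.1- cells, to 67.8 CPM against 0.524 CPM after PBS (adjusted p = 0.0122), and in ccl34b.1+ cells had 18.7 CPM after E. coli and 286 CPM after PBS without a call (adjusted p = 0.169). Its responses differed between gates, like those of cxcl11.5, by -11.05 on the log2 scale (adjusted p = 0.00785 by edgeR). Of the remaining cxcl11 genes, cxcl11.4 had 145, 144 and 45.7 CPM in ccl34b.1- cells after E. coli, against 25.9, 0.626, 0 and 0 CPM after PBS. It was not called (log2 fold change 4.11, SE 2.03, adjusted p = 0.257 by edgeR), although the libraries did not overlap. In ccl34b.1+ cells cxcl11.4 had at most 1.99 CPM in any library, and cxcl11.8 had at most 0.928 CPM in any library of either gate.

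The 2 Cxcr3 receptor genes measured, cxcr3.2 and cxcr3.3, were found in both gates. cxcr3.3 had 279, 150 and 111 CPM in ccl34b.1+ cells after E. coli, against 44.8, 3.96, 13 and 5.66 CPM after PBS. In ccl34b.1- cells it had 61.0, 0.689 and 107 CPM after E. coli, against 8.99, 0.626, 0 and 0.124 CPM after PBS. The ccl34b.1+ libraries did not overlap between treatments and the ccl34b.1- libraries did. Neither passed the test, with log2 fold changes of 3.42 (adjusted p = 0.281 by edgeR) in ccl34b.1+ cells and 4.56 (adjusted p = 0.203) in ccl34b.1- cells. cxcr3.2 had 135, 56.5 and 140 CPM in ccl34b.1+ cells after E. coli, against 358, 156, 156 and 295 CPM after PBS, and 62.8, 98.5 and 10.8 CPM in ccl34b.1- cells after E. coli, against 51.8, 51.0, 33.2 and 41.0 CPM after PBS. In ccl34b.1+ cells every E. coli library was below every PBS library, but with a log2 fold change of -1.14 the gene was not called (adjusted p = 0.489), and in ccl34b.1- cells the libraries overlapped (0.45, adjusted p = 0.832). Of all 9 CXC receptor genes, 5 were tested and 1 was called for E. coli against PBS: the CXCR4 gene ENSDARG00000041959 fell in ccl34b.1+ cells (log2 fold change -3.07, adjusted p = 0.0228 by edgeR). In that gate 1.51% of all tested genes were called.

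**Figure D4:**
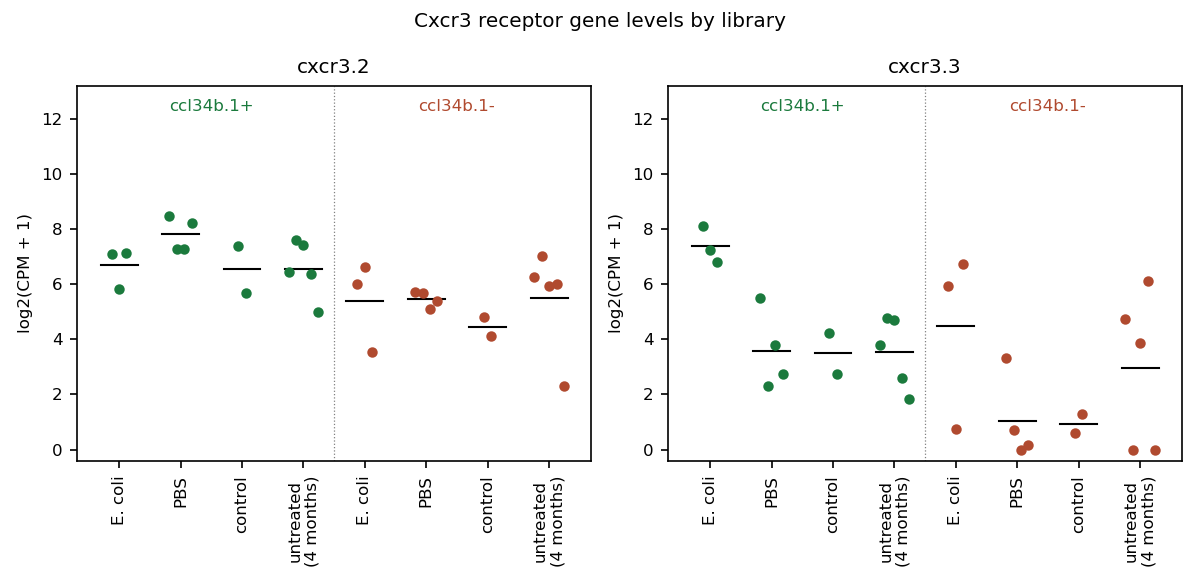
Level of the receptor genes cxcr3.2 and cxcr3.3 in each library, as log2(CPM + 1), with ccl34b.1+ groups on the left and ccl34b.1- groups on the right of each panel. Points are libraries and bars are means of the plotted log2 values; cxcr3.3 had 111 to 279 CPM in the E. coli libraries of ccl34b.1+ cells and 3.96 to 44.8 CPM in the PBS libraries, a difference that did not pass the test.

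Genes that act upstream of interferon-inducible chemokines were then counted by list. Over all tested genes, edgeR called 1.51% in ccl34b.1+ and 0.403% in ccl34b.1- cells for E. coli against PBS. Of 12 genes for interferons and their receptors, 7 were tested and none was called by edgeR in E. coli against PBS in either gate. Of 20 genes of the JAK-STAT pathway and interferon regulatory factors, all tested, SOCS3 (ENSDARG00000025428) and SOCS1, which restrain cytokine signalling, rose in ccl34b.1+ cells, by 2.44 and 4.85 on the log2 scale (adjusted p = 0.00448 and 0.0321). The regulatory factor IRF7 rose in ccl34b.1- cells by 3.18 (adjusted p = 0.0416) and in ccl34b.1+ cells had 99.6 CPM after E. coli and 412 CPM after PBS (adjusted p = 0.226). Its responses differed between gates, with a log2 difference of -5.22 (adjusted p = 0.0264 by edgeR).

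Of 13 NF-kappaB pathway genes, all tested, 2 rose and 1 fell in ccl34b.1+ cells and none was called in ccl34b.1- cells. Of all tested genes, 1.51% were called in ccl34b.1+ and 0.403% in ccl34b.1- cells. The inhibitors nfkbiaa and TNFAIP3 rose by 3.33 and 3.49 on the log2 scale (adjusted p = 0.00013 and 0.00632 by edgeR), and the adaptor gene MYD88 had a log2 fold change of -1.76 (adjusted p = 0.0194). In ccl34b.1- cells the log2 fold changes of nfkbiaa and TNFAIP3 were 1.82 and 1.69, not called, and the difference between gates was not called for either. Of 28 interferon-stimulated genes, 19 were tested and mxc was the 1 called, in ccl34b.1+ cells. The median log2 fold change of this list was 1.14 in ccl34b.1+ cells, against -0.19 over all genes, and 0.33 in ccl34b.1- cells, against -0.08.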

How the data were processed

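Whole-transcriptome libraries of 100 sorted cells were made by Smart-seq2, per the labels' protocols. The deposited values are raw gene counts per library; STAR, featureCounts, DESeq2 and the builds GRCz11 and danRer11 are named, without versions or settings, in the submitters' processing notes. Counting of strand and of multiply mapped reads is not given in the sources used here, so the split of reads between similar cxcl11 paralogs, and between overlapping genes, is uncertain. Amplified reads carry no molecular identifiers, and the limits of 3 counts cover counting error only. Of 32520 gene IDs, 29201 had a name in the reference table. Counts were scaled by trimmed mean of M-values and tested with edgeR 4.0.16 (R 4.3.3, limma 3.58.1; quasi-likelihood, robust, two-sided, low-count filter by group, Benjamini-Hochberg adjustment), with group means as the model. The 10 untreated libraries were fitted alone and the 18 others together as 6 groups sharing 1 estimate of the spread; the script was tested on simulated data. Intervals are 95% from the moderated standard error. Alternatives were DESeq2 1.42.0, its size factors, no filter, the replicate number as a block, other library sets, control fish as comparator, and each library left out. The comparisons of E. coli and of control fish with PBS share the PBS libraries. Named genes were the 5 paralogs, up to 2 called genes with the smallest adjusted p per pathway list and E. coli comparison, the Cxcr3 receptor genes, and the 3 most similar profiles for each paralog, of which 1 is not reported here; cxcl11.4 and cxcl11.8 were added as the rest of the family, and MYD88 and the cell type markers named were chosen after their values were seen. Paralogs and lists were chosen with earlier results of these data known.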

Additional observations from a re-analysis of the deposited data

Results flagged for a closer look

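In 3 groups, of untreated or PBS-injected fish, single libraries stood apart from the rest of their group by Dixon's criterion. Chance meets it in about 1 in 20 cases where values are normally distributed. These levels hold many counts of 0, so the rate that applies to them is not known. In all, 19 combinations of a paralog and a group of 4 or 5 libraries were examined. In untreated ccl34b.1+ cells, library 1 had 70.1 CPM of cxcl11.1 where the other 4 had none, and library 3 had 28.8 CPM of cxcl11.5 where the others had 0 to 4.09 CPM. In untreated ccl34b.1- cells, library 5 stood apart for 3 paralogs, with 30.6 CPM of cxcl11.5, 40.7 CPM of cxcl11.6 and 38.0 CPM of cxcl11.7, where the others had at most 8.66, 3.98 and 0.373 CPM. In ccl34b.1+ cells after PBS, library 1 had 31.4 CPM of cxcl11.5, against 2.12 to 3.96 CPM in the other 3. Library 1 was also the deepest of that group, at 7790562 gene counts against 3139982 to 3249439. The E. coli response of cxcl11.5 differed between gates, by -7.02 on the log2 scale (ccl34b.1+ minus ccl34b.1-; adjusted p = 0.00785 by edgeR's quasi-likelihood test).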

How the results depend on the processing

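In E. coli against PBS, the calls of cxcl11.5, cxcl11.6 and cxcl11.7 in ccl34b.1- cells held under every alternative but the control fish as comparator, and the call of cxcl11.1 in ccl34b.1+ cells held under every one but that and the replicate block. Calls near the threshold moved, and few libraries per group and 1 library carrying a level limit them; the cause of each change was not tested. Main calls, out of 5 paralogs, were 2 in ccl34b.1+ and 4 in ccl34b.1- cells for E. coli against PBS, 1 for the difference between gates, 3, 0, 2 and 0 between gates after E. coli, after PBS, in control and in untreated fish, and 0 for PBS against control.

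With no filter on low counts, 4 paralogs were called between gates in control fish, 2 after PBS, 1 (cxcl11.5) for PBS against control in ccl34b.1- cells and 3 for the difference of responses; cxcl11.3 was called in ccl34b.1+ cells (log2 fold change 2.10), cxcl11.1 in ccl34b.1- cells (6.26), and the differences of cxcl11.3 (-4.60) and cxcl11.6 (-5.07) were called. With the DESeq2 test the same counts were 5, 1, 1 and 3, cxcl11.1 was called in ccl34b.1- cells (6.10), and so were the differences of cxcl11.3 (-4.54) and cxcl11.6 (-4.97). With all 28 libraries in the fit, 1 paralog was called in untreated fish, cxcl11.1 (adjusted p = 0.0499 by edgeR). With the compared groups alone, 0 paralogs were called between gates in control fish and 1 in ccl34b.1+ cells for E. coli, where cxcl11.7 was lost (3.48), while cxcl11.1 was called in ccl34b.1- cells (6.23). With control fish as comparator, 1 paralog was called in ccl34b.1+ cells, where cxcl11.1 was lost (7.27), and 0 in ccl34b.1- cells, where cxcl11.3 (5.83), cxcl11.5 (3.45), cxcl11.6 (4.04) and cxcl11.7 (4.23) were lost. Of all genes called against PBS, 119 of 188 in ccl34b.1+ and 18 of 50 in ccl34b.1- cells kept their call with this comparator.

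Each fish gave both gates, but no label ties a replicate number to a fish, so the main tests did not take the numbers as pairs. Same-numbered libraries correlated at 0.00297 to 0.0389 in their deviations from the group means. Every ccl34b.1+ library correlated best with its own number in untreated, control and E. coli fish, but 2 of 4 did after PBS. These values do not settle whether a number marks a fish, and the main tests between gates leave out any pairing within fish. Between gates, the replicate block took libraries of the same treatment and number as the same fish. With this block, 4 paralogs were called between gates in control fish, 1 after PBS and 3 for the difference of responses, where cxcl11.3 (-4.61) and cxcl11.6 (-4.75) were added. For E. coli against PBS the replicate block was instead an effect of each number shared by all treatments, which ties together different fish. With it, 0 paralogs were called in ccl34b.1+ cells (cxcl11.1 7.73, adjusted p = 0.117, and cxcl11.7 3.02, adjusted p = 0.151, by edgeR). In ccl34b.1- cells cxcl11.3 was lost (6.69, adjusted p = 0.173 by edgeR).

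With each library left out in turn, called paralogs ranged over 1 to 2 in ccl34b.1+ and 3 to 4 in ccl34b.1- cells for E. coli against PBS, 0 to 2 for the difference of responses, 0 to 1 between gates in control fish and 0 to 1 after PBS. Log2 values ranged over 0.68 to 2.62 (cxcl11.3), -0.46 to 1.98 (cxcl11.5), 0.36 to 1.6 (cxcl11.6) and 1.85 to 4.22 (cxcl11.7) in ccl34b.1+ cells, 5.81 to 7.15 (cxcl11.1) and 5.99 to 7.11 (cxcl11.3) in ccl34b.1- cells, and -6.10 to -3.91 (cxcl11.3), -7.85 to -5.28 (cxcl11.5), -5.91 to -4.54 (cxcl11.6) and -3.96 to -1.6 (cxcl11.7) for the difference. Uncalled values that changed sign were those of cxcl11.5 (-3.07 to 1.01) and cxcl11.6 (-2.90 to 0.087) between gates in untreated fish, cxcl11.5 after PBS (-0.87 to 1.7), cxcl11.1 after E. coli (-0.74 to 0.0056), and cxcl11.1 (-1.35 to 1.47) and cxcl11.6 (-0.68 to 0.21) for PBS against control in ccl34b.1+ cells.

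Counts of all called genes moved with the test. For E. coli against PBS they were 188 (101 to 981 over the alternatives) in ccl34b.1+ and 50 (9 to 1194) in ccl34b.1- cells, and 34 (14 to 596) for the difference of responses. Between gates they were 287 (112 to 1589) after E. coli, 334 (227 to 1102) after PBS, 108 (38 to 456) in control and 321 (187 to 782) in untreated fish, and for PBS against control 0 (0 to 83) in ccl34b.1+ and 0 (0 to 126) in ccl34b.1- cells.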
